A study of Mus musculus with 2 samples.

Results

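The IGF binding proteins are the 7 genes Igfbp1 to Igfbp7, which were taken by symbol from a table of 27324 rows, of which 23361 held values. All 7 had a single row with values in both libraries, and 6 of them were above 0. The 2 RNA-Seq libraries were those of brown preadipocytes (D0) and of differentiated brown adipocytes (D7), 1 for each stage. The cells came from newborn C57BL/6 mice (C57BL/6J in the study's methods), from the brown fat between the shoulder blades. Per the labels, isolation was in medium with 20% fetal bovine serum, and both stages then stood in differentiation medium with 10% serum, T3 at 1 nM and insulin at 0.1 μM, starting 4 days before induction. D0 cells had not received the inducing reagents. D7 cells had been given indomethacin (0.125 mM), dexamethasone (2 μg/ml) and IBMX (0.5 mM) at day 0, which were withdrawn after 2 days. The sources conflict on insulin at D0. The labels put insulin and T3 in the medium of both stages, while the study's methods name them only from day 0 onward. The methods also differ from the labels in the amounts of insulin, serum and dexamethasone, and describe cells immortalized with large T where the labels name primary cultures. Whether cells of several pups were pooled is not given in the sources used here.

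IGF binding proteins are secreted proteins that hold the insulin-like growth factors IGF1 and IGF2 outside the cell. A bound growth factor cannot reach the IGF1 receptor, and proteases such as PAPP-A free it by cutting the binding protein. Some members also attach to the matrix or to cell surface proteins and act there without a growth factor. In fat, IGF1 and insulin drive preadipocytes to divide and to differentiate, so the binding proteins around them set how much growth factor the cells see.

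FPKM counts fragments relative to transcript length and to the reads of a library, and the values were used as the authors deposited them. How many fragments stood behind each value was worked out from 651 single-exon genes. For those of 20 fragments or fewer, 98.9% of 93 values at D0 and 99.0% of 99 at D7 came out whole to 0.1, for denominators of 21471824 and 18266002 fragments. Intervals are exact 95% intervals on these fragments. They hold counting error alone and speak of the libraries rather than of the stages, since no stage had a second library. Differences below are therefore without replicates, and none has a p-value.

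All 7 adipocyte markers were at least 2.0-fold higher at D7, the library labelled as adipocytes. The preadipocyte or fibroblast markers did not follow their label as a list. Of 8, Pdgfrb, Thy1 and Col1a1 were at least 2.0-fold lower at D7, Dlk1 and Cd34 were higher with ratios of 10.8 and 8.29, and Pdgfra, Ly6a and Col3a1 were within the threshold. Of 8 brown adipocyte markers, Ucp1, Cidea, Elovl3 and Cox8b were listed at 0 at D0 and above 0 at D7, 3 others were at least 2.0-fold higher, and Prdm16 had a ratio of 1.22. Markers of other cells moved as well. The summed FPKM of 11 macrophage genes was 156 at D0 and 583 at D7, with 10 of 11 at least 2.0-fold higher and Cd14 as the exception. The summed FPKM of 7 smooth muscle or pericyte genes was 2491 at D0 and 386 at D7, of which Acta2 alone made up 2164 and 319. Acta2, Cnn1 and Cspg4 were lower, with ratios of 0.147, 0.0969 and 0.366. Rgs5 and Kcnj8 were higher, with 2.89 and 2.22, and Myh11 (0.536) and Notch3 (1.91) were within the threshold. The 8 endothelial genes together summed to 1.62 FPKM and then 2.69, with Tie1 and Cldn5 listed at 0 in both libraries. Of the other endothelial genes, Tek and Kdr were higher at D7, with ratios of 3.11 and 2.18. Cdh5 was lower, with a ratio of 0.181 (0.0198 to 0.799) on about 13 and 2 fragments. Pecam1, Emcn and Vwf were within the threshold, Pecam1 on about 1 fragment in each library. In such bulk libraries, fewer cells of a type and less RNA per cell cannot be told apart.

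The sequences in front of these genes were unlike one another at the starts used here. Promoter windows from 250 bases before to 50 after the transcript start were taken from RefSeq on GRCm38.p6, the mm10 assembly, and matched all 7 members in 8 windows, of which Igfbp2 has 2. Printed here are the windows of Igfbp3 and Igfbp6, the members that were at least 2.0-fold higher at D7, of Igfbp7, the most abundant member at D0, and of Igfbp1, which was listed at 0 next to Igfbp3. They lie at chr11:7197537-7197836 (plus strand) for Igfbp1, chr11:7213874-7214173 (minus strand) for Igfbp3, chr15:102143936-102144235 (plus strand) for Igfbp6 and chr5:77407996-77408295 (minus strand) for Igfbp7. Each runs 5′ to 3′ along its gene, and capitals mark any of 7 searched motifs.
Igfbp1: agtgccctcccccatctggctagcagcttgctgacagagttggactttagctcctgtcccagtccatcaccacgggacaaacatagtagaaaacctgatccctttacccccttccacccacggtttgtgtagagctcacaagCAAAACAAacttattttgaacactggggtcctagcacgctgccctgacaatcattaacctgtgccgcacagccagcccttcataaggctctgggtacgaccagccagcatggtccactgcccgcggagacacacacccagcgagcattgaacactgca
Igfbp3: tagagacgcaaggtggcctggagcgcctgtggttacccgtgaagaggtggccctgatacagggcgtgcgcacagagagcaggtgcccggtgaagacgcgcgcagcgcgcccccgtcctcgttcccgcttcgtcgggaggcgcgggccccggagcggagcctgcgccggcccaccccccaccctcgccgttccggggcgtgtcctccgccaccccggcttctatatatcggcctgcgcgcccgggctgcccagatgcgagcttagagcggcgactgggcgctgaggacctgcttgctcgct
Igfbp6: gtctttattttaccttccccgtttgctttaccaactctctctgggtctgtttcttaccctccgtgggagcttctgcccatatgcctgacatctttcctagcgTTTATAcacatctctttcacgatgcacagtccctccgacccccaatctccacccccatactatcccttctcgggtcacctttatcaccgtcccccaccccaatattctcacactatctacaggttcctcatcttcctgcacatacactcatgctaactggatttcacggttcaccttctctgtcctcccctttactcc
Igfbp7: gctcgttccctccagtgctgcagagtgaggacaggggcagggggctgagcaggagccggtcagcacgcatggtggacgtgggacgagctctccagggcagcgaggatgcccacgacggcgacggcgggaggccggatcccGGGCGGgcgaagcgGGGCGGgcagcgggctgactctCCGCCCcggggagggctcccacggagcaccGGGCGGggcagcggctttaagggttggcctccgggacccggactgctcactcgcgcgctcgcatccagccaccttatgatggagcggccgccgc

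The 7 motifs were searched on both strands by their exact letters, so variants such as the stretch tatatat in the Igfbp3 window were not counted. They were the TATA box (TATAAA), the GC box (GGGCGG), the core of the insulin response element (CAAAACAA), the cAMP response element (TGACGTCA), the glucocorticoid half-site (AGAACA), the C/EBP palindrome (TTGCGCAA) and the PPAR direct repeat (AGGTCA and AGGTCA with 1 base between). No matches overlapped each other in the members' windows. The Igfbp7 window held 4 GC boxes and the first window of Igfbp2 held 3, while the other members had none. A GC box was found in 35.7% of all 32851 windows. CAAAACAA was found in Igfbp1 alone among the members, from base -108 to -101, and in 2.5% of all windows. The Igfbp6 window had a TATAAA match on the reverse strand at -148 to -143, and the Igfbp4 window had one at -28 to -23, beside 13.6% of all windows. A glucocorticoid half-site was found in Igfbp2 only, at -206 to -201, and in 19.0% of all windows. The cAMP response element, the C/EBP palindrome and the PPAR direct repeat had no match in any member, beside 1.8%, 0.183% and 0.040% of all windows.

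The windows also differed in base composition. The GC content was 73.3% for Igfbp7, 71.7% for Igfbp3, 71.3% for Igfbp4, and 67.0% and 57.3% for the windows of Igfbp2. It was 56.3% for Igfbp5, 54.3% for Igfbp1 and 49.7% for Igfbp6, with a median of 52.7% over all windows. Igfbp3 held 37 CpG dinucleotides, Igfbp7 33, Igfbp4 27, and the windows of Igfbp2 18 and 14. Igfbp5 held 10, and Igfbp6 and Igfbp1 held 8 each, with a median of 7 over all windows. The members that were at least 2.0-fold higher thus had unlike windows, one GC-rich and one not. The Igfbp6 window ends at 102144235, before the GENCODE M21 start of its gene at 102144362. Whether the contrast depends on the start used was not tested. A match is a description of letters and not of a bound site, and no window carries a measurement of binding here.

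**Figure D1:**
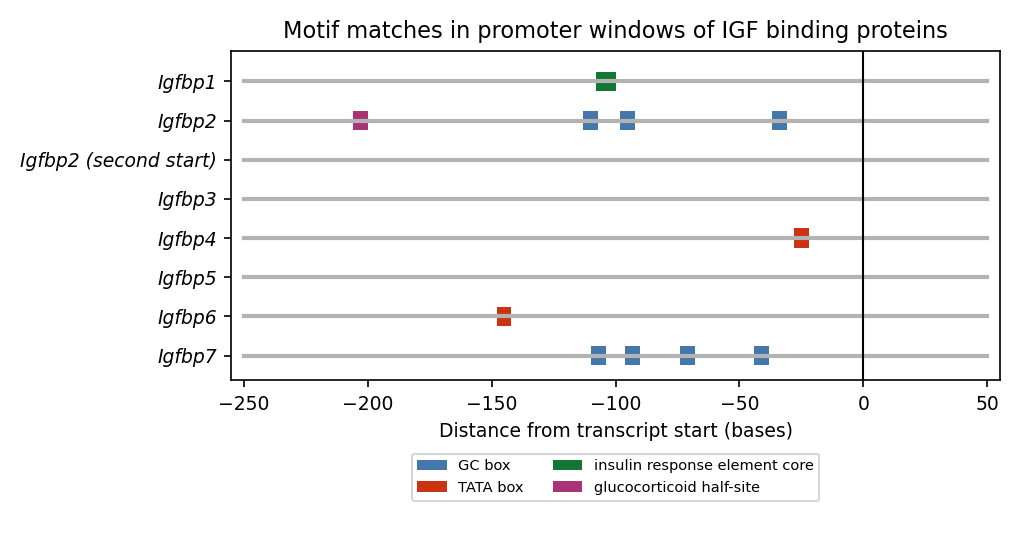
Matches of the searched motifs in the promoter windows of the 7 IGF binding protein genes. The horizontal axis is the distance from the transcript start in bases, each grey line is a window of 250 bases before to 50 after it, and each coloured block is a match on either strand. GC boxes lie in Igfbp7 and Igfbp2, the insulin response element core in Igfbp1, and the windows of Igfbp3 and Igfbp5 hold no exact match.

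The binding proteins of D0 and D7 were not the same mixture. Igfbp3 was 11.1-fold higher at D7 and Igfbp6 3.85-fold higher, Igfbp2 was 1.66-fold higher, Igfbp7 and Igfbp4 were 1.21-fold and 1.24-fold lower, Igfbp5 had a ratio of 1.03, and Igfbp1 was listed at 0 at both stages. The threshold was that of the study, a 2.0-fold difference either way, applied here to the values as deposited. The study's own counts are matched by a different scaling, given below. By this threshold on the deposited values, 2 of the 6 members above 0 were higher at D7 and 0 were lower. Of all 14986 genes above 0 in both libraries, 31.7% passed this threshold in either direction, 18.5% as higher and 13.2% as lower. With 6 genes, the members' share of 2 in 6 is too coarse to set apart from that background. The median difference of the 6 members in log2(FPKM + 0.1) was 0.38, beside 0.03 over the 16671 genes above 0 in at least 1 library.

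**Figure D2:**
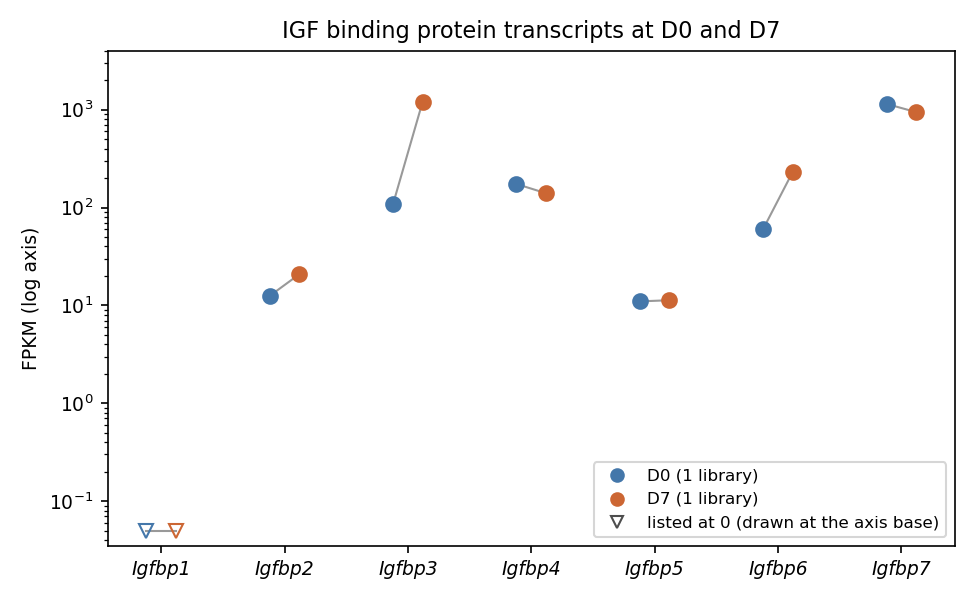
FPKM of each IGF binding protein gene at D0 (blue) and D7 (orange) on a log axis, 1 library per stage, with grey lines joining the same gene. Open triangles mark Igfbp1, which was listed at 0 in both libraries. Igfbp3 moved from 109 to 1211 and Igfbp6 from 60.5 to 233, while the points of Igfbp4, Igfbp5 and Igfbp7 lie almost level.

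Igfbp3 (ENSMUSG00000020427.11) is the chief carrier of IGF1 and IGF2 in blood, where it joins them with the acid-labile subunit. It lies on the minus strand of chromosome 11 from 7206086 to 7213923 in the GENCODE M21 annotation of mm10. FPKM in the D0 library was 109, on roughly 3573 fragments, and in the D7 library 1211, on roughly 33772. D7 exceeded D0 by a factor of 11.1 (95% interval 10.8 to 11.5), a log2 ratio of 3.48. Its place among the genes above 0 went from 739 at D0 to 34 at D7, counted from the highest FPKM. Of the 10773 genes with an FPKM of at least 1 in both libraries, 108, Igfbp3 included, had a ratio at least this high. No other annotated gene overlaps it. The transcript named for it in the table is 1709 bases long, and the annotation also has one of 2421 bases.

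Igfbp6 (ENSMUSG00000023046.6) binds IGF2 in preference to IGF1. It lies on the plus strand of chromosome 15 from 102144362 to 102149511. Its RefSeq start, used for the promoter window, lies upstream of that, and the whole window ends before the annotated gene begins. FPKM was 60.5 at D0 and 233 at D7, from about 1212 and 3954 fragments. The ratio was 3.85 (3.61 to 4.11), and 435 of the 10773 genes, Igfbp6 included, reached it. Like Igfbp3, it overlaps no other annotated gene.

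Igfbp7 (ENSMUSG00000036256.13) binds IGFs weakly, also binds insulin, and is found in vessel walls and basement membranes. Its FPKM was 1143 at D0 and 944 at D7, from about 25065 and 17547 fragments, which placed it at 72 and 58 from the top of all genes above 0. It was the member with the highest level at D0. The ratio was 0.825 (0.810 to 0.841), a 1.21-fold lower value at D7. The interval lies below 1 by counting error, but a difference of this size has no replicate to set it against. Its gene is on the minus strand of chromosome 5 from 77349240 to 77408041. The deposited locus, from 77310484 to 77408045, is shared with Polr2b on the opposite strand, whose FPKM was 21.4 at D0 and 19.8 at D7. Igfbp7 is also a gene of endothelium and pericytes, and the endothelial and smooth muscle or pericyte values given above differed between the libraries, in both directions. Their part in its level was not tested.

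Igfbp4 (ENSMUSG00000017493.12) holds IGFs away from their receptor until PAPP-A cuts it. It is on the plus strand of chromosome 11 from 99041244 to 99054392. FPKM was 174 at D0 and 139.8 at D7, from about 13627 and 9318 fragments. The ratio was 0.804 (0.783 to 0.826), a 1.24-fold lower value at D7. Igfbp4 and Igfbp7 were the only members with a ratio below 1, and neither reached 0.5.

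Igfbp2 and Igfbp5 had the lowest levels of the members above 0. Igfbp2 (ENSMUSG00000039323.18) carries a motif for binding integrins and is secreted by liver and fat. It lies on the plus strand of chromosome 1 from 72824503 to 72852474, and its FPKM was 12.5 at D0 and 20.8 at D7, from about 303 and 427 fragments. The ratio was 1.66 (1.43 to 1.93), below the threshold. Igfbp5 (ENSMUSG00000026185.8), which binds to matrix as well as to IGFs, lies on the minus strand of the same chromosome from 72857932 to 72874884. Its FPKM was 11.0 at D0 and 11.3 at D7, from about 1374 and 1200 fragments, and its ratio of 1.03 has an interval from 0.950 to 1.11 that includes 1. No change of Igfbp5 was detectable by counting error on the values as deposited. Division by library medians after a floor of 0.01, described below, put the ratio at 0.805, outside that interval.

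Igfbp1 (ENSMUSG00000020429.7) is known as a liver protein whose gene insulin represses. It lies on the plus strand of chromosome 11 from 7197782 to 7202546 and was listed at 0 in both libraries. A count of 0 allows up to 3 fragments, which for its transcript is 0.104 FPKM at D0 and 0.122 at D7. Its promoter window, printed above, is the one with the insulin response element core. Igfbp1 ends 3539 bases from the end of Igfbp3, with the genes facing each other, so that the member listed at 0 and the one with the highest ratio are neighbours. Igfbp2 and Igfbp5 are arranged in the same way on chromosome 1, with 5457 bases between their ends, and both had low levels beside the other members above 0.

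The levels within each library fell into an order that changed at its top. At D0 the order by FPKM was Igfbp7, Igfbp4, Igfbp3, Igfbp6, Igfbp2, Igfbp5 and Igfbp1. At D7 it was Igfbp3, Igfbp7, Igfbp6, Igfbp4, Igfbp2, Igfbp5 and Igfbp1. At D0 the exact Poisson intervals of Igfbp2 and Igfbp5 overlapped, from 11.1 to 14.0 and from 10.4 to 11.6 FPKM, so their order is uncertain. Overlap is not a test of their difference, and none was run. The intervals of other neighbours above 0 did not overlap in either library, as far as counting error goes. The FPKM of Igfbp7 was 10.5 times that of Igfbp3 at D0 and 0.779 times at D7.

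The summed FPKM of the family was 1510 at D0 and 2559 at D7, or 1.69 times as high. The sum over all genes in the table had a ratio of 1.02, and the family held 0.295% of it at D0 and 0.490% at D7. The FPKM of Igfbp3 alone differed by 1102 between the libraries and that of Igfbp6 by 172, against 1049 for the whole family. Without Igfbp3 the sum was 1401 at D0 and 1348 at D7, or 0.962-fold. The higher total at D7 thus rested on Igfbp3.

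Shares within a library do not depend on the scaling between libraries. Igfbp7 held 75.7% of the summed FPKM of the family at D0 and 36.9% at D7. Igfbp3 held 7.20% at D0 and 47.3% at D7, a gain of 40.1 percentage points. The share of Igfbp6 was 4.01% and then 9.09%, and that of Igfbp4 was 11.5% and then 5.46%. Igfbp2 and Igfbp5 each held under 1% at both stages. Counted in fragments, which weight long transcripts more, Igfbp4 held 30.2% at D0 and 14.1% at D7, above the 5.97% of Igfbp6 at D7, and Igfbp5 held 3.04% and 1.81%. Igfbp7 thus led the family at D0, and Igfbp3 led it at D7.

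**Figure D3:**
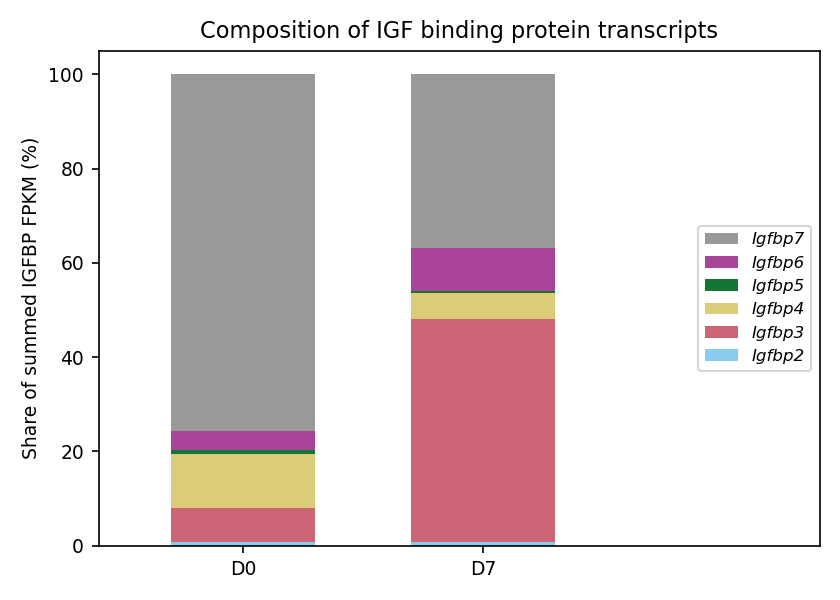
Share of each gene in the summed FPKM of the IGF binding proteins, in percent, for the D0 and the D7 library. Igfbp7 fills 75.7% of the D0 bar and 36.9% of the D7 bar, and Igfbp3 fills 7.20% and 47.3%. Igfbp1 was listed at 0 and is not drawn.

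Against all genes of the table, Igfbp3 and Igfbp6 stood above the 2.0-fold line and the other members near the diagonal. The genes nearest to each member were taken by the distance of log2 FPKM over the 2 libraries, which is a weak measure of likeness with so few points. Nearest to Igfbp3 was Acly, an enzyme that makes acetyl-CoA for fat synthesis. It went from 121 to 1644 FPKM and lay at a distance of 0.466. Nearest to Igfbp6 were Ndufs7, a subunit of respiratory complex I, with a distance of 0.067, and Insig1, a regulator of sterol synthesis, with 0.075. The others had Psen2 and Ranbp2 (Igfbp2), Pfdn5 and Tma7 (Igfbp4), Rspry1 and Kat7 (Igfbp5), and Gnas and Eef2 (Igfbp7) as nearest genes, at distances from 0.023 to 0.181. Igfbp3 was the member with the most distant neighbours.

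**Figure D4:**
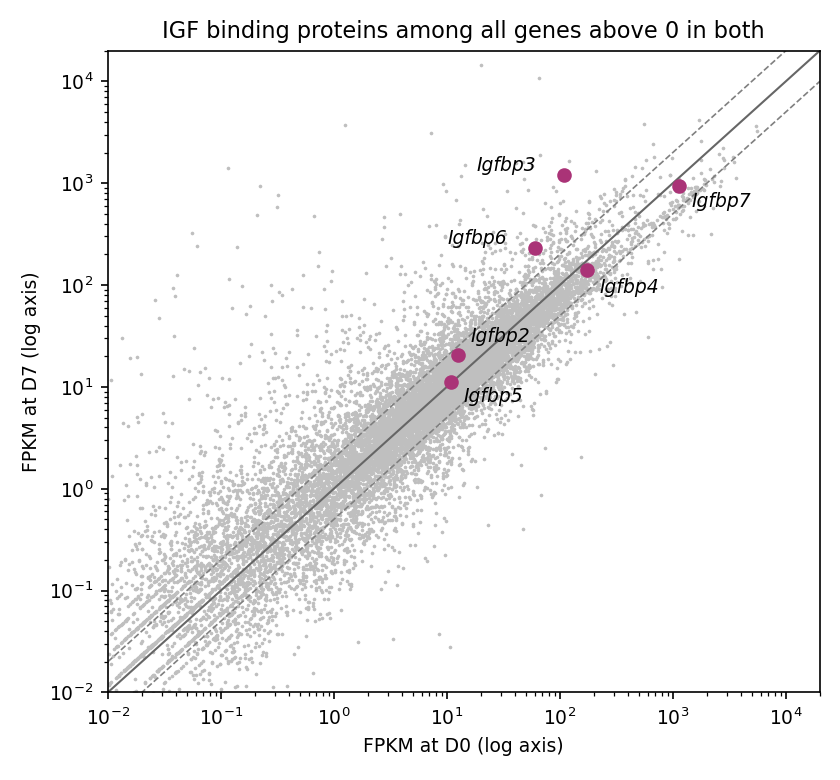
FPKM at D7 against FPKM at D0, both on log axes from 0.01, for genes above 0 in both libraries (grey) and the 6 IGF binding proteins above 0 (purple). The solid line marks equal values and the dashed lines 2.0-fold differences. Igfbp3 and Igfbp6 lie above the upper dashed line, and the other members lie between the lines.

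The growth factors that these proteins bind had ratios on either side of 1. Igf1 FPKM was 5.76 in the D0 library and 26.5 in the D7 library, 4.60 times as much (3.91 to 5.44). Igf2, the fetal growth factor, went from 234 to 158, and its ratio of 0.675 (0.661 to 0.690) did not reach 0.5. Igf2 thus had 40.6 times the FPKM of Igf1 at D0 and 5.95 times at D7. Antisense genes overlap both, and a second coding gene, Gm49394, overlaps Igf2 on its own strand, so their values are uncertain. Macrophages express Igf1, and the macrophage markers were higher at D7 as given above. Their part in the level of Igf1 was not tested. Ins1 and Ins2, the insulin genes, were listed at 0.

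Set against the sum of their ligands, the binding protein transcripts were more abundant at D7, and set against Igf1 only they were less abundant. The summed FPKM of the 7 members was 6.30 times that of Igf1 and Igf2 together at D0 and 13.9 times at D7. Igfbp7, which binds IGFs weakly, held 75.7% of the members' sum at D0 and 36.9% at D7. The size of these ratios thus depends on counting it, and a sum without it was not taken. Against Igf1 only, the sum of the 7 members was 262 times at D0 and 96.4 times at D7. Igfbp3 alone was at 0.454 times the ligands at D0 and at 6.56 times at D7. These are ratios of transcripts and do not measure secreted protein.

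The other genes set beside the members, called pathway genes here, numbered 38, in lists drawn up by role, shared domain or shared name. Of the 32 above 0 in both libraries, 8 were at least 2.0-fold higher at D7 and 9 lower. Relatives by domain made up 4 of the higher and 4 of the lower, and the IGF2 mRNA-binding proteins 1 of the lower. Over all genes above 0 in both libraries, 18.5% were higher and 13.2% lower. The median difference in log2(FPKM + 0.1) was -0.44 for pathway genes above 0 in at least 1 library, beside 0.03 over all such genes. Igfals, the acid-labile subunit that joins IGFBP3 and IGF in blood, went from an FPKM of 0.0241 to 1.31. This rests on about 1 and 58 fragments, and the ratio of 54.2 has an interval from 11.8 to 2742. Among receptors, Insr, the insulin receptor, went from 5.90 to 18.6 FPKM (3.16-fold). Igf2r, which clears IGF2 into lysosomes, went from 113 to 34.2 (0.303-fold), with the antisense gene Airn overlapping it. Igf1r had a ratio of 0.654, within the threshold, and Insrr was listed at 0.

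All 5 genes in the list of proteases that cut binding proteins had a lower FPKM at D7, but only Pappa passed the threshold. Htra3 and Htra4, which share a name with Htra1 but were listed among the relatives below, were higher, with ratios of 4.93 and 2.61. Pappa, whose product PAPP-A cuts IGFBP4 and IGFBP5, went from 52.0 to 24.1 FPKM, or 0.464-fold (0.448 to 0.480). Adam12 had a ratio of 0.534, Adam9 of 0.573 and Htra1 of 0.616. Pappa2 FPKM was low in both libraries (0.620 and 0.560), and its interval of 0.690 to 1.20 includes 1. Of the PAPP-A inhibitors, Stc1 had a ratio of 1.03 and Stc2 of 1.23, and Prg2 was listed at 0 at D0 with about 1 fragment at D7. Igfbp4 and its protease gene Pappa were thus both lower in the D7 library, Igfbp4 by less than the threshold.

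Of 6 partners of binding proteins at the cell surface, 2 were lower by at least 2.0-fold and 1 higher. Itga5, a chain of the integrin that binds IGFBP1, went from 112 to 28.7 FPKM. Ptprz1, a phosphatase that binds IGFBP2, had 4.29 and 1.65. Both were past the threshold, with ratios of 0.257 and 0.386, while Itgb1 (0.663) and Lrp1 (0.612) did not. Tmem219, a receptor of IGFBP3, went from 20.4 to 24.8 FPKM (1.21-fold), beside the 11.1-fold difference of Igfbp3. Cd93, a receptor of IGFBP7, was higher, with 0.397 and then 2.24.

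Other secreted proteins share the N-terminal domain of the IGF binding proteins. Among these 13 relatives, of which 11 were above 0 in both libraries, 4 were at least 2.0-fold higher at D7 and 4 lower. All 4 lower ones belong to the CCN group of matrix signalling proteins. Ctgf FPKM was 513 and then 109, Wisp1 had 76.3 and 9.16, Nov had 193 and 72.6, and Cyr61 had 317 and 143. Wisp2, of the same group, had a ratio of 1.09, and Wisp3 was listed at 0 at D0. The summed FPKM of the 6 CCN genes was 1225 at D0 and 471 at D7, beside 1510 and 2559 for the IGF binding proteins. Higher were Htra3, a secreted serine protease, from 8.43 to 41.5, Kazald1 from 3.76 to 10.6, Htra4 on about 14 and 31 fragments, and Esm1 on about 1 and 11 fragments, with a ratio of 13.0 (1.88 to 557). Crim1 had a ratio of 0.807, and Igfbpl1, the closest in name, was listed at 0 in both libraries. An antisense gene overlaps Ctgf, and genes also overlap Kazald1, Htra4 and Esm1.

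The IGF2 mRNA-binding proteins share only the name, since they bind the transcript inside the cell. Igf2bp1 went from 3.92 to 1.75 FPKM (0.447-fold). Igf2bp2 and Igf2bp3 had ratios of 0.881 and 0.623.

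**Figure D5:**
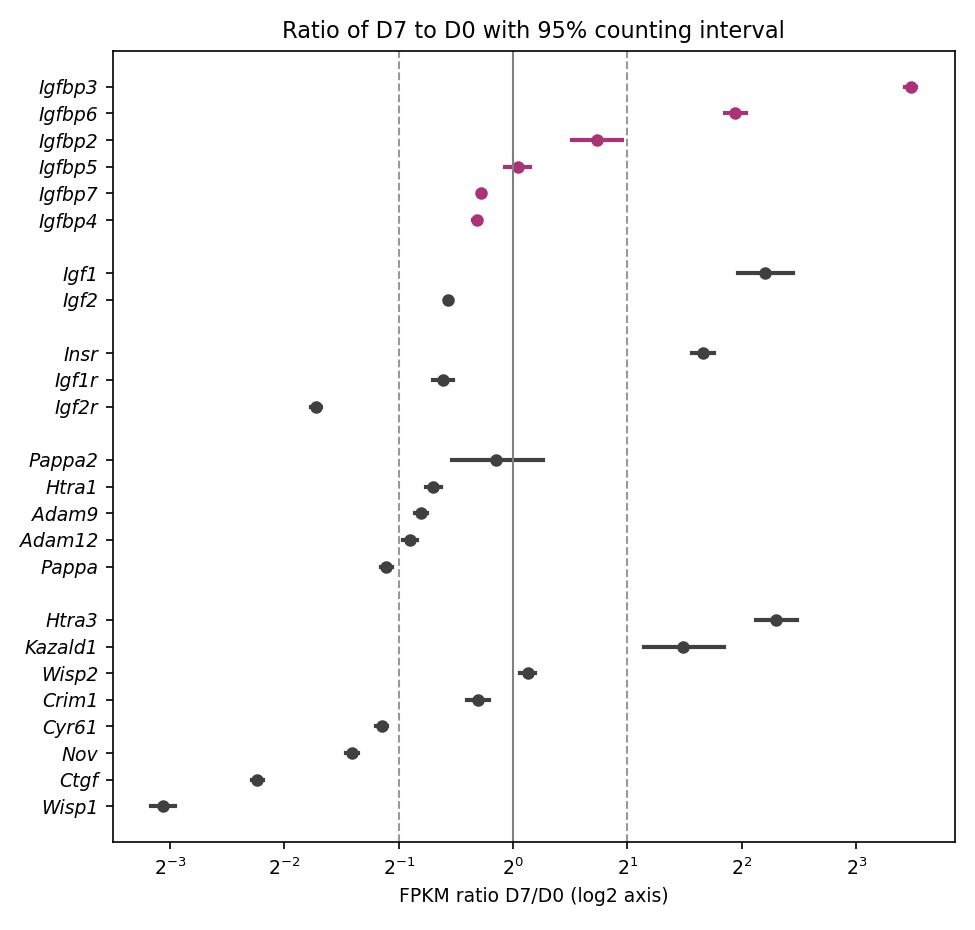
FPKM ratio of D7 to D0 on a log2 axis for the 6 IGF binding proteins above 0 (purple) and for the ligands, receptors, proteases and relatives (grey) with an FPKM of at least 1 in both libraries, plus Pappa2. Points are ratios, bars are 95% counting intervals, the solid line marks 1 and the dashed lines 0.5 and 2.0. Of the genes drawn, Igfbp3 at 11.1 lies farthest to the right and Wisp1 at 0.120 farthest to the left, while Igfals and Esm1, which had higher ratios on few fragments at D0, are not drawn.

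The scaling between the libraries matters for members near 1. In a setting chosen after seeing the data, values under 0.01 were raised to 0.01 and the libraries were then divided by their own medians, which lowers each log2 ratio by 0.35. This setting had been derived earlier from fold changes that the study gives, so its counts are not independent of the study's own. Igfbp5 then went from 1.03 to 0.805, and Igfbp4 and Igfbp7 to 0.630 and 0.646. Igfbp3 and Igfbp6 stayed above the threshold at 8.72 and 3.01. Over all genes this setting gave 2836 higher and 3832 lower calls, 57.5% of them lower. These are the counts that the study reports. The values as deposited, used for the calls above, gave 2767 and 1980, 41.7% of them lower.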

How the data were processed

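RNA-Seq values of 1 library at D0 and 1 at D7 were analysed. The authors removed adaptor, low-quality, duplicate and rRNA reads, used SOAP2 to align the remainder to mm10 and to gene sequences, and deposited FPKM values for each gene in each library. The submitters' processing notes name Bowtie2 instead. The annotation and the use of strand in counting are not given in the sources used here. Of 27324 rows, 3963 held no value.

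Ratios of D7 to D0 were taken without a pseudocount, and genes at 0 were counted apart. Fragments were recovered with 179 bases taken from transcript lengths at D0 and 182 at D7, on single-exon genes of at least 600 bases whose ends matched GENCODE M21 within 500 bases. Genes with several exons took the length of the transcript named in the table, so their fragments are approximate. Intervals of ratios are Clopper-Pearson intervals at 95%. The members and gene lists were chosen with earlier results of these data known. Genes named are the 7 members, pathway genes past 2.0-fold or with an FPKM of at least 1, and the 2 genes nearest to each member, of which 1 is not reported here. Pappa2, Prg2, Wisp3, Ins1, Ins2, Insrr and Igfbpl1 fall outside this rule and were named, after their values were seen, to account for their lists. Marker genes are named where a list is described. Columns of annotation in the table were used for names only. The alternatives were pseudocounts of 0.1 and 1, TPM, median centring, the upper quartile, a threshold of 4.0, a filter at an FPKM of 1, other ligands, other lengths and shares of fragments. Scripts were tested on simulated data. Scripts ran in Python 3.11.15 with scipy 1.17.1, pandas 2.3.3, numpy 2.4.6 and matplotlib 3.10.9.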

Additional observations from a re-analysis of the deposited data

How the results depend on the processing

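No paired analysis was possible because each stage had 1 library, and no library could be left out. Igfbp3 and Igfbp6 were called higher and no member lower under each scaling and pseudocount tried. At a threshold of 4.0, 1 member was higher, 5 pathway genes were higher and 2 lower, and 1211 of all genes were higher and 578 lower. With a pseudocount of 1, 1533 of all genes were higher and 1021 lower. Median centring gave ratios of 0.831 for Igfbp4 and 0.852 for Igfbp7, and TPM gave 0.809 for Igfbp7. The family's summed ratio was 1.66 with TPM, 1.75 with median centring and 0.962 without Igfbp3. Division by the library median after the floor of 0.01, chosen after seeing the data, gave 1.33 for the sum, 1.30 for Igfbp2, 8.72 for Igfbp3, 0.630 for Igfbp4, 0.805 for Igfbp5, 3.01 for Igfbp6 and 0.646 for Igfbp7, with 14 pathway genes and 3832 of all genes lower. Against Igf1 only, the family's sum was 262 times the ligand at D0 and 96.4 times at D7, a fall where Igf2 only gave 6.46 and 16.2. Shares counted in fragments weight long transcripts more. At D0 they were 0.671% for Igfbp2, 7.91% for Igfbp3, 30.2% for Igfbp4, 3.04% for Igfbp5, 2.68% for Igfbp6 and 55.5% for Igfbp7. At D7 they were 0.645%, 51.0%, 14.1%, 1.81%, 5.97% and 26.5% in the same order. No member had several rows, so summing rows was not run. The other lengths tried changed the intervals only. How much cultures of a stage vary was not measured.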
